A study of Mus musculus with 32 samples.

Results

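Translation initiation factor mRNAs were followed between the polysomal and sub-polysomal fractions of 4T1 spheroids, with 4T1 being a mouse mammary carcinoma line. All genes of the table whose symbol begins with Eif1 to Eif6 were taken, without pseudogenes and without Eif5a and Eif5a2, whose product is the hypusinated factor that the study addressed. This gave 60 of 17757 genes. Spheroids were grown for 5 days in a lung-like medium (LLM) under 4 conditions. The shSCR cells, which carried a scrambled hairpin, were grown with 700 µM aspartate (ASP shSCR) or without added aspartate (NoASP shSCR), and cells with a hairpin against Grin2d, an NMDA receptor subunit, or Dhps, deoxyhypusine synthase, were grown with 700 µM aspartate (ASP shGRIN2D and ASP shDHPS). The hairpins were delivered by lentivirus and the lines were polyclonal. From 4 spheroid pellets per condition, grown independently, RNA was taken with more than 3 ribosomes (polysomal) and with fewer than 3 (sub-polysomal), which gave 32 libraries.

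Initiation begins when eIF2 brings the initiator tRNA to the small ribosomal subunit as a ternary complex with GTP, while eIF1, eIF1A and eIF3 prepare the subunit for the mRNA. The cap is bound by eIF4E, which joins the scaffold eIF4G and the helicase eIF4A, and this assembly is blocked by the 4E-binding proteins when mTOR is inactive. After start codon recognition eIF2 leaves with GDP and is recharged by eIF2B, a step that is blocked when a stress kinase phosphorylates eIF2α.

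The libraries held between 12870563 and 25639437 counts, with a median of 18168765. Initiation factor mRNAs took between 0.874% and 1.59% of the counts of a library. Their share was 0.938% ± 0.0210 (SD, n = 4) in the sub-polysomal and 1.30% ± 0.243 (SD, n = 4) in the polysomal libraries of ASP shSCR, and in the other 3 conditions the polysomal means lay between 1.44% and 1.47%. The polysomal libraries of ASP shSCR were at 0.959%, 1.28%, 1.48% and 1.47%, and the lowest of them was replicate 1. Levels are given as CPM, counts scaled to a common library size. Sub-polysomal Dhps was at 38.2 ± 4.06 CPM (SD, n = 4) in ASP shSCR and at 9.50 ± 0.813 CPM in ASP shDHPS (edgeR adjusted p = 1.11e-08). Grin2d was at 4.34 ± 1.50 CPM in ASP shSCR and 2.36 ± 0.417 CPM in ASP shGRIN2D, a difference that did not pass the test (edgeR adjusted p = 0.232). The epithelial markers Krt8 and Epcam averaged 1226 and 388 CPM in the sub-polysomal libraries of ASP shSCR. The leukocyte marker Ptprc and the endothelial marker Pecam1 stayed below 0.5 CPM on average in every group. The macrophage marker Cd68 and the fibroblast marker Pdgfra were at 12.1 and 22.4 CPM in the polysomal libraries of ASP shSCR, and Cd68 was at 23.1 CPM in those of ASP shDHPS. Adgre1, Cdh5 and Dcn were not among the genes analysed.

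A library of ASP shSCR stood apart before any comparison was made. On a scale where 0 is the mean sub-polysomal and 1 the mean polysomal profile of the other conditions, replicate 1 of ASP shSCR reached only 0.372 in its polysomal RNA. The remaining polysomal RNA, from 15 pellets, reached 0.777 to 1.27, and sub-polysomal RNA ran from −0.114 to 0.162 over 16 pellets. The count of calls over all members in ASP shSCR, and named values that moved most with this pellet, are also given without it. Counts within classes of members are given with every pellet included.

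Of the 60 mRNAs, 49 had at least 10 counts in every library. The other 11 were Eif4ebp3, which never exceeded 55 counts, and genes whose symbols extend Eif1ad or Eif4a3 (Eif1ad2, Eif1ad3, Eif1ad6, Eif1ad7, Eif1ad8, Eif1ad15, Eif1ad16, Eif1ad19, Eif4a3l1 and Eif4a3l2), which never exceeded 76. The coding sequences of Eif4a3l1 and Eif4a3l2 share 96.2% and 96.8% of their aligned bases with Eif4a3, and those of Eif3j1 and Eif3j2 are identical over 783 bases. Values of these genes are uncertain, since the counting can split reads between copies. Eif2s3y and Eif4e3, which would match the rule, were not among the genes analysed.

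Most initiation factor mRNAs that differed between the fractions were higher on polysomes. Eif4ebp1, Eif4ebp2 and Eif4enif1, which encode proteins that bind eIF4E, were lower in every condition. The log2 ratio of polysomal to sub-polysomal CPM was fitted with a term for each pellet, and it is a ratio relative to the typical mRNA, because no spike-in gave the absolute share of an mRNA on polysomes. In ASP shSCR, 25 of 60 were higher and 6 lower on polysomes (edgeR, Benjamini-Hochberg adjusted p under 0.05 over 17757 genes), where 20.8% of all genes were higher and 18.9% lower. The counts were 31 higher and 7 lower in NoASP shSCR (23.7% and 20.6% of all genes), 30 and 6 in ASP shGRIN2D (23% and 20.4%), and 30 and 8 in ASP shDHPS (21.8% and 21.3%). Without ASP shSCR replicate 1, 24 were higher and 7 lower in ASP shSCR, where 7159 of 17757 genes were called in either direction. The 7 and the 6 lower in NoASP shSCR and ASP shGRIN2D include 1 member each with few counts (Eif1ad2 and Eif1ad15), and the other called members all had enough counts. Among the 11046 genes with at least 10 counts in each library the shares were larger, with 31.8% higher and 26.7% lower in ASP shSCR, 36.1% and 27.8% in NoASP shSCR, 35.1% and 27.7% in ASP shGRIN2D, and 33% and 29.1% in ASP shDHPS.

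In all 4 conditions 20 members were higher, where 15.0% of all genes were, and 5 were lower, where 14.2% were. Of the 20, Eif2b5 and Eif3d lost the call in ASP shSCR without ASP shSCR replicate 1 (edgeR adjusted p = 0.0603 and 0.112). The 5 were Eif4ebp1, Eif4ebp2, Eif4enif1, Eif4b and Eif3f. A call in none of the conditions was found for 12 members (20%), where 42.7% of all genes had none. Of the 12, 9 were among those with few counts and the others were Eif2a, Eif3e and Eif3h. The shares given for these patterns cover all 17757 genes, of which 11046 reached 10 counts in every library. Of the 60 members 49 did, and shares matched for counts were not computed for the patterns. Scaling the libraries within each fraction instead raised the median log2 ratio of all genes by 0.19 in ASP shSCR and the share of called genes that were higher from 52.4% to 63.8%. Under that scaling 32 members were higher and 5 lower in ASP shSCR, and the ratio of Eif3k in ASP shSCR changed sign. With DESeq2 size factors those of Eif4g2 and Eif5 in ASP shSCR, both close to 0, changed sign.

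**Figure D1:**
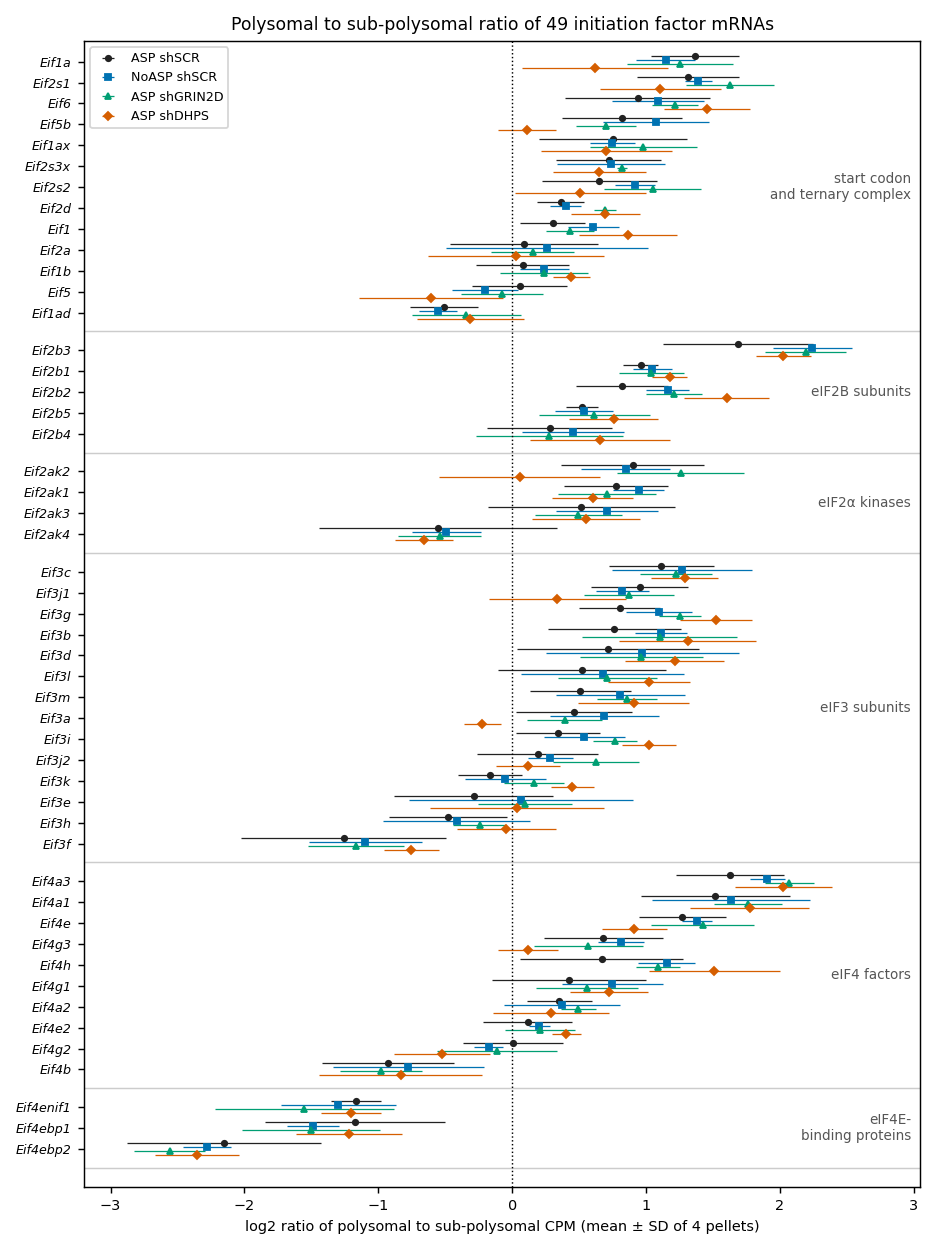
Log2 ratio of polysomal to sub-polysomal CPM (x axis) for the 49 initiation factor mRNAs with at least 10 counts in every library, grouped by role, with points for the mean and bars for the SD of 4 pellets in each condition. Most means lie to the right of 0, whereas all 3 eIF4E-binding proteins lie between −2.56 and −1.17.

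The 3 subunits of eIF2 were higher on polysomes in all 4 conditions. Eif2s1, which encodes the α subunit that stress kinases phosphorylate, had log2 ratios of 0.91, 1.83, 1.24 and 1.27 in the 4 pellets of ASP shSCR. In NoASP shSCR they were 1.30, 1.47, 1.31 and 1.49, in ASP shGRIN2D 1.38, 1.53, 2.11 and 1.49, and in ASP shDHPS 0.85, 1.36, 0.62 and 1.60. Every pellet was above 0 and the 4 conditions overlapped. The fitted ratio in ASP shSCR was 1.31 ± 0.19 (SE, edgeR adjusted p = 5.33e-06). Eif2s2 and Eif2s3x, the β and γ subunits, had ratios of 0.65 ± 0.20 and 0.72 ± 0.19 (SE).

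Among the factors that act with eIF2 at the start codon, Eif1a was highest in ASP shSCR. It encodes eIF1A, which occupies the decoding site of the small subunit. Its log2 ratios were 1.22, 1.85, 1.24 and 1.15 in ASP shSCR and 0.30, 1.34, 0.11 and 0.73 in ASP shDHPS, so that the groups overlapped by 1 ASP shDHPS pellet. The fitted ratio was 1.37 ± 0.20 (SE) in ASP shSCR and 0.62 ± 0.20 in ASP shDHPS, and its X-linked paralog Eif1ax, with 85.7% of aligned coding bases identical, was at 0.75 ± 0.21 in ASP shSCR. Eif6, which keeps the large subunit from joining early, was higher in all conditions, with ratios from 0.94 in ASP shSCR to 1.45 in ASP shDHPS. Eif5b, the GTPase of subunit joining, was higher in ASP shSCR (0.82 ± 0.18) and at 0.11 ± 0.18 in ASP shDHPS, where it did not pass the test (edgeR adjusted p = 0.677).

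Eif1ad was the only start codon member with enough counts that was lower on polysomes in ASP shSCR, at −0.51 ± 0.18 (SE). Eif1, which guards start codon choice, and its paralog Eif1b were at 0.30 ± 0.18 and 0.08 ± 0.17 in ASP shSCR, neither of which passed. Eif5, the activator of the eIF2 GTPase, was at 0.06 ± 0.20 in ASP shSCR and lower on polysomes in ASP shDHPS at −0.60 ± 0.20. Eif2a and Eif2d, which can deliver initiator tRNA in other ways, were at 0.09 ± 0.25 and 0.36 ± 0.15 in ASP shSCR without passing. Of the 13 members of this class with enough counts, 7 were higher and 1 was lower in ASP shSCR, with a median log2 ratio of 0.65. Over the 11046 genes with the same count minimum the median was 0.11, with 31.8% higher and 26.7% lower.

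The eIF2B subunits, which together form the exchange factor that reloads eIF2 with GTP, had 4 of 5 members higher and none lower on polysomes in ASP shSCR, NoASP shSCR and ASP shGRIN2D, and all 5 higher in ASP shDHPS. Of all genes with enough counts 31.8% were higher in ASP shSCR, 36.1% in NoASP shSCR, 35.1% in ASP shGRIN2D and 33% in ASP shDHPS. Eif2b5 lost its call in ASP shSCR without ASP shSCR replicate 1. Eif2b3, the γ subunit, had the highest ratio of the 49 mRNAs in ASP shSCR, with values of 1.02, 1.44, 2.09 and 2.20 in the 4 pellets. Values were 1.85, 2.23, 2.36 and 2.54 in NoASP shSCR, 2.58, 1.85, 2.23 and 2.11 in ASP shGRIN2D, and 2.18, 1.93, 1.78 and 2.21 in ASP shDHPS. The ASP shSCR pellets spanned a wider range than those of the other conditions, and the lowest of them was replicate 1. The fitted ratio was 1.70 ± 0.20 (SE) in ASP shSCR. Eif2b4, which encodes the δ subunit, was the member that did not pass there, at 0.28 ± 0.22 (edgeR adjusted p = 0.339), and at 0.05 without ASP shSCR replicate 1.

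The 4 kinases that phosphorylate eIF2α did not share a direction. Eif2ak1, the heme-regulated kinase, was higher on polysomes in all 4 conditions, with ratios from 0.60 in ASP shDHPS to 0.95 in NoASP shSCR. Eif2ak2, the kinase that senses double-stranded RNA, was higher in ASP shSCR (0.91 ± 0.22, SE), NoASP shSCR (0.85 ± 0.22) and ASP shGRIN2D (1.26 ± 0.22), and was at 0.06 ± 0.22 in ASP shDHPS. Eif2ak3, the kinase of the endoplasmic reticulum, passed in NoASP shSCR and ASP shDHPS at 0.72 and 0.56. Eif2ak4, the amino acid sensor GCN2, was lower in ASP shDHPS at −0.66 ± 0.23 and lay between −0.55 and −0.50 in the other conditions without passing. Without ASP shSCR replicate 1, Eif2ak3 passed in ASP shSCR at 0.80 and Eif2ak4 was at −0.27 there.

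The 14 eIF3 subunits spread over more than 2 log2 units, although they belong to 1 complex. In ASP shSCR 7 were higher and 1 was lower, where 31.8% and 26.7% of all genes with enough counts were, and the ratios ran from −1.25 for Eif3f to 1.11 for Eif3c. Eif3c, a core subunit, had ratios of 0.85, 0.72, 1.32 and 1.56 in ASP shSCR. Eif3f had −0.66, −2.38, −1.03 and −0.97. All Eif3f pellets lay below all Eif3c pellets, and replicate 2 gave the lowest Eif3f value. The fitted ratio of Eif3f was −1.25 ± 0.23 (SE, edgeR adjusted p = 0.000102), and −1.52 without ASP shSCR replicate 1.

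In the other conditions Eif3f had ratios of −1.10 in NoASP shSCR, −1.17 in ASP shGRIN2D and −0.75 in ASP shDHPS. Eif3h and Eif3e were at −0.48 ± 0.21 and −0.29 ± 0.27 (SE) in ASP shSCR and passed in no condition, although Eif3h was lower at −0.62 without ASP shSCR replicate 1 (edgeR adjusted p = 0.0294). The subunits that were higher in all 4 conditions were Eif3b, Eif3c, Eif3d, Eif3g and Eif3m. The peripheral Eif3j1 and Eif3j2, whose counts cannot be separated with certainty, were at 0.95 ± 0.19 and 0.19 ± 0.18 in ASP shSCR. Eif3a, Eif3i, Eif3k and Eif3l were at 0.46, 0.34, −0.17 and 0.53 there, of which Eif3a alone passed, at the threshold (edgeR adjusted p = 0.04996). In ASP shDHPS Eif3i, Eif3k and Eif3l were higher on polysomes, at 1.02, 0.45 and 1.02.

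Of the 10 eIF4 factors with enough counts, 5 were higher and 1 was lower on polysomes in ASP shSCR, where 31.8% and 26.7% of all genes with enough counts were. Eif4e, the cap-binding protein, had log2 ratios of 1.07, 1.69, 1.35 and 0.96 in ASP shSCR, 1.46, 1.26, 1.50 and 1.31 in NoASP shSCR, 1.10, 1.60, 1.88 and 1.11 in ASP shGRIN2D, and 0.69, 1.24, 0.77 and 0.95 in ASP shDHPS. All 16 pellets were above 0. The ASP shSCR pellets overlapped with those of each other condition, and all NoASP shSCR pellets lay above all ASP shDHPS pellets. The fitted ratios were 1.27 ± 0.18 (SE), 1.38 ± 0.18, 1.42 ± 0.18 and 0.91 ± 0.18 in that order. Its paralog Eif4e2, which encodes the cap-binding repressor 4EHP, was at 0.12 ± 0.16 in ASP shSCR and passed in ASP shDHPS alone, at 0.41 ± 0.16 (edgeR adjusted p = 0.0466). The difference between ASP shSCR and ASP shDHPS in the ratio of Eif4e2 was −0.29 ± 0.23 and did not pass (edgeR adjusted p = 0.610), and it was −0.16 without ASP shSCR replicate 1.

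Eif4a1, the main helicase, had ratios of 1.23, 0.95, 1.67 and 2.22 in ASP shSCR and a fitted ratio of 1.52 ± 0.24 (SE, edgeR adjusted p = 1.19e-05). Eif4a2, whose coding sequence has 78.2% of its bases in common with Eif4a1, had 0.60, 0.11, 0.18 and 0.53. The pellets of the 2 paralogs did not overlap, with Eif4a1 higher in all 4. Eif4a3, the helicase of the exon junction complex, was at 1.63 ± 0.18 in ASP shSCR and at 2.07 ± 0.18 in ASP shGRIN2D.

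Eif4g1, the major scaffold, had log2 ratios of −0.01, −0.03, 0.55 and 1.19 in ASP shSCR, where its fitted ratio of 0.42 ± 0.21 (SE) did not pass (edgeR adjusted p = 0.117). Replicates 1 and 2 were near 0 and replicate 4 was high, and without ASP shSCR replicate 4 the ratio was 0.17. It passed in the other conditions, with 0.75 in NoASP shSCR, 0.56 in ASP shGRIN2D and 0.72 in ASP shDHPS. Eif4g3 was at 0.68 ± 0.18 in ASP shSCR, and Eif4g2, which encodes the eIF4G-like factor DAP5, was at 0.00 ± 0.20. The helicase cofactors went apart, with Eif4h at 0.67 ± 0.21 and Eif4b at −0.93 ± 0.23 in ASP shSCR. Eif4b had pellet values of −1.34, −1.22, −0.90 and −0.25 there, all below 0.

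Apart from Eif4ebp3, which had too few counts to be described, the mRNAs of the proteins that hold eIF4E were lower on polysomes in every condition. Eif4ebp2, which encodes a 4E-binding protein that mTOR inactivates, had the lowest ratio of the 49 mRNAs in each condition. Its log2 ratios were −1.37, −3.12, −2.15 and −1.97 in ASP shSCR, −2.33, −2.28, −2.04 and −2.47 in NoASP shSCR, −2.28, −2.73, −2.84 and −2.38 in ASP shGRIN2D, and −2.64, −2.22, −1.98 and −2.58 in ASP shDHPS. All 16 pellets were below −1, and the highest was ASP shSCR replicate 1. The fitted ratio in ASP shSCR was −2.15 ± 0.22 (SE, edgeR adjusted p = 6.22e-08), and −2.48 without that pellet.

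Eif4ebp1, the paralog with 69.1% of aligned coding bases identical, had −0.50, −0.82, −2.05 and −1.33 in ASP shSCR, and fitted ratios between −1.50 in ASP shGRIN2D and −1.17 in ASP shSCR. Replicates 1 and 2 of ASP shSCR lay above all 4 NoASP shSCR pellets, which ran from −1.68 to −1.29, and replicate 3 lay below them. Without ASP shSCR replicate 1 its ratio in ASP shSCR was −1.46. Eif4enif1, which encodes the eIF4E transporter 4E-T, had −1.13, −1.26, −1.35 and −0.91 in ASP shSCR and a fitted ratio of −1.17 ± 0.20 (SE). Its pellets lay close together in ASP shSCR and between −2.25 and −0.77 in ASP shGRIN2D.

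**Figure D2:**
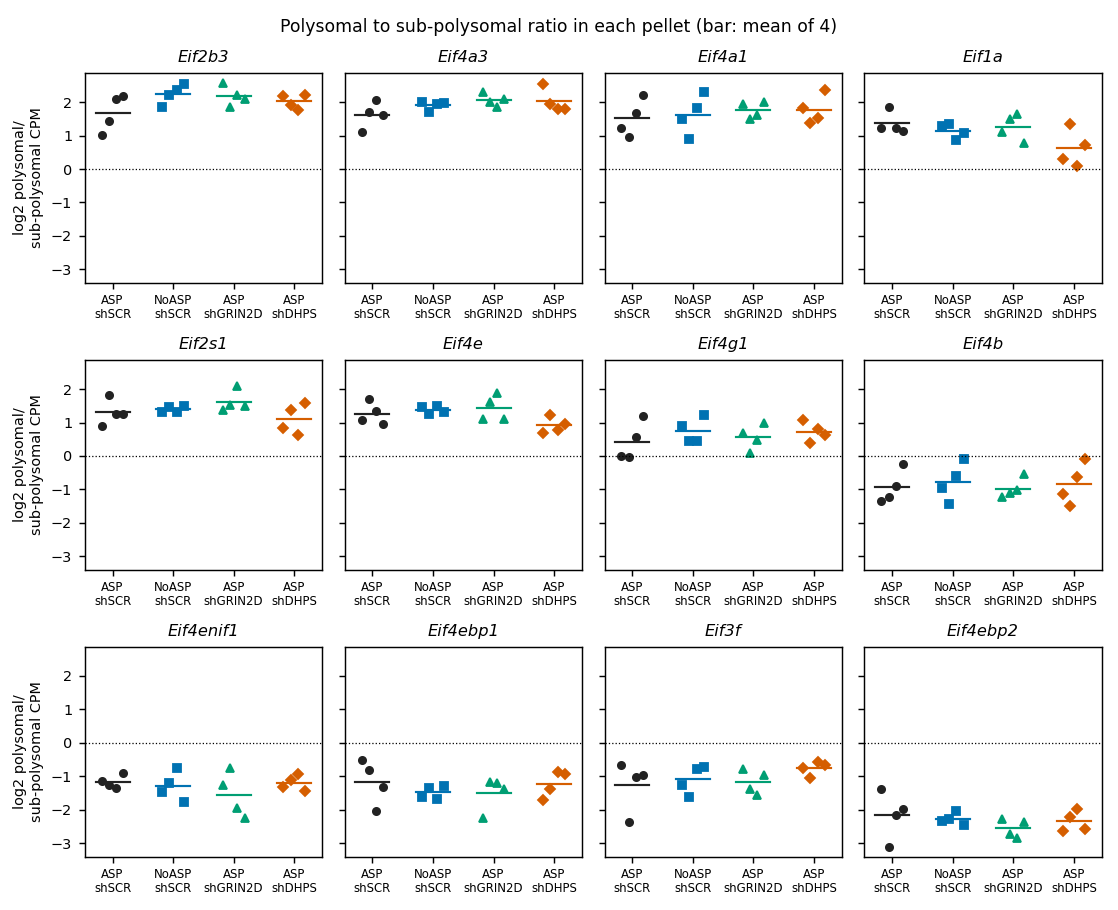
Log2 ratio of polysomal to sub-polysomal CPM in each of the 4 pellets per condition (points, with a bar at the mean) for 12 initiation factor mRNAs. Eif4ebp2 lies below −1 and Eif4e, Eif4a1, Eif4a3 and Eif2b3 lie above 0 in all 16 pellets.

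Ribosomal protein mRNAs and some initiation factor mRNAs begin with a run of pyrimidines through which mTOR controls their translation. The start of the mRNA is therefore shown for members with a long run on either side of the typical mRNA (Eif3f, Eif2s3x, Eif2b5 and Eif3l) and for members with runs under 8 at both ends of the ratio (Eif4b, Eif4ebp2, Eif4a1 and Eif4a3), the longest of these being the run of 7 in Eif4b, with 10 bases before and 20 bases from the start annotated by RefSeq (build GRCm38.p6), 5′ to 3′ on the strand of the gene. Capitals mark the longest run of C and T in each window.
Eif3f, chr7:108934405-108934434, plus strand: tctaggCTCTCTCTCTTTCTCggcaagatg
Eif2s3x, chrX:94212632-94212661, minus strand: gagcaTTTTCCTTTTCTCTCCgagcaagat
Eif2b5, chr16:20498807-20498836, plus strand: CTCTTTCTCTCCCTgcaactacaccttcgc
Eif3l, chr15:79075213-79075242, plus strand: gagTTCTTCTTCCgctctctcccacgggct
Eif4b, chr15:102073763-102073792, plus strand: tcccgtcggacgccgcgccaCCCCCTCgcg
Eif4ebp2, chr10:61452650-61452679, minus strand: cgcagcgggacgaCCgggcgagagcaggcg
Eif4a1, chr11:69672404-69672433, minus strand: gtaacgTCacgtcgagttgcagagcgccgg
Eif4a3, chr11:119300024-119300053, minus strand: cgccttacatccggTTCCCgccgcggcttg

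Windows with a long run belonged to mRNAs on both sides of the typical mRNA. The runs of Eif3f and Eif2s3x lay mostly after the annotated start. Those of Eif2b5 and Eif3l lay mostly before it, so by this annotation little of them belongs to the mRNA. Eif3f, with a run of 15, was lower on polysomes in all 4 conditions. Eif2s3x and Eif2b5, with runs of 16 and 14 in their windows, were higher in all 4, with log2 ratios of 0.72 and 0.52 in ASP shSCR. Eif4ebp2 was the lowest of all with a run of only 2. A run of at least 8 was present in the window of 8 of 40 members with enough counts and a RefSeq entry, in 13.5% of 8458 genes with the same count minimum, and in 22 of 55 cytosolic ribosomal protein genes (40.0%). The letters in an annotated window describe the reference and do not show where transcription began in these cells.

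The cytosolic ribosomal proteins gave a reference for the low members. Of 79 with enough counts, 72 were lower and none was higher on polysomes in ASP shSCR, with a median log2 ratio of −1.21, and in ASP shDHPS 48 were lower and 2 higher, with a median of −0.68. Of the 4 initiation factor mRNAs known from textbooks to begin with a pyrimidine tract (Eif3e, Eif3f, Eif3h and Eif4b), Eif3f and Eif4b were lower in every condition. The median over all 4 was −0.70 in ASP shSCR and −0.40 in ASP shDHPS. In the annotated window of Eif4b the longest run was only 7, although Eif4b is on the textbook list. Eif3e and Eif3h had no annotated window here. Of 12 elongation factors 4 were higher and 5 lower in ASP shSCR, where 31.8% and 26.7% of all genes with enough counts were.

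Of 23 on a list of poly(A)-binding, kinase and scanning proteins, 6 were higher and 9 lower on polysomes in ASP shSCR, and 3 were higher and 9 lower in ASP shDHPS. Of all genes with enough counts 31.8% were higher and 26.7% lower in ASP shSCR, and 33% and 29.1% in ASP shDHPS. The lowest was Pabpc1, the cytoplasmic poly(A)-binding protein that bridges to eIF4G, at −2.00 ± 0.36 (SE) in ASP shSCR, where its pellets lay on both sides of 0. Mknk2, a kinase of eIF4E, was at −1.89 ± 0.25, and Atf4, the transcription factor translated when eIF2α is phosphorylated, at −1.17 ± 0.19. The highest were Ddx3x, a helicase, at 1.45 ± 0.22 and Mcts1, a reinitiation factor, at 1.29 ± 0.16.

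Over the initiation factor mRNAs the ratio had little rank correlation with coding length. A longer coding sequence can carry more ribosomes, and over the 10490 of 11046 genes with an annotated length the Spearman correlation of the ASP shSCR ratio with coding length was 0.22. Over the 49 initiation factor mRNAs it was 0.02, and in the other conditions it lay between −0.12 and 0.02. With the logarithm of coding length the Pearson correlation in ASP shSCR was 0.24 over all genes and 0.13 over the 49. Whether the members differ from all genes in this was not tested. The 14 members in the lowest quartile of coding lengths (up to 864 bases) had a median log2 ratio of 0.25, where all genes of that quartile had −0.28, and the 10 in the highest quartile had 0.49, where all genes had 0.33. In the quartile from 867 to 1395 bases the 15 members had a median of 0.65, where all genes had 0.17. From 1398 to 2232 bases the 10 members had 0.52, where all genes had 0.28. These are descriptions across genes of the same libraries.

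Levels per kilobase of transcript were compared within the sub-polysomal libraries of ASP shSCR. Lengths were those of the annotated transcript with the longest coding sequence, for example 4991 bases for Eif4e and 1227 for Eif4a2. That transcript need not be the one expressed, so ranks between genes depend on this choice. Eif3h and Eif1 were the most abundant, at 545 ± 148 and 504 ± 34.8 CPM per kilobase (SD, n = 4), which did not differ beyond their spread. Eif3k, Eif4a1, Eif3f and Eif3e followed at 337, 337, 307 and 281. Eif4ebp1 was at 125 ± 18.3 and Eif4ebp2 at 50.2 ± 8.25. The cap-binding protein Eif4e was at 20.9 ± 4.04, close to Eif1a, Eif1ax and Eif2s1, and the 4 eIF2α kinases were among the lowest, between 2.00 and 5.23. In the polysomal libraries of ASP shSCR Eif4a1 was the most abundant, at 1110 ± 228 CPM per kilobase.

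The median over the 49 mRNAs was above that over all genes in every pellet. In ASP shSCR the medians of the pellets were 0.21, 0.33, 0.62 and 0.69, with replicate 1 the lowest, and over all 11046 genes they ran from 0.03 to 0.20. The mean of the members' medians was 0.46 ± 0.23 (SD, n = 4) in ASP shSCR, 0.62 ± 0.26 in NoASP shSCR, 0.66 ± 0.10 in ASP shGRIN2D and 0.55 ± 0.10 in ASP shDHPS. The conditions differed by no more than the spread between pellets of ASP shSCR. With the libraries of ASP shSCR replicate 1 left out and the others rescaled, the mean in ASP shSCR was 0.48.

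**Figure D3:**
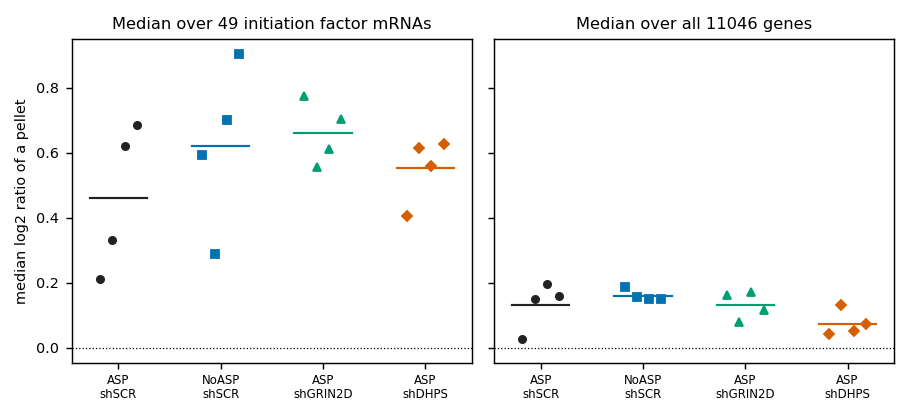
Median log2 ratio of polysomal to sub-polysomal CPM in each pellet (points, with a bar at the mean of 4) over the 49 initiation factor mRNAs (left) and over all 11046 genes that reach this minimum of 10 counts (right). The members' medians lie between 0.21 and 0.90, and those of all genes between 0.03 and 0.20.

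No initiation factor mRNA passed the test for a difference in polysomal ratio with aspartate. The question of this comparison was which mRNAs move onto polysomes when aspartate is added. In ASP shSCR minus NoASP shSCR no member and no other gene was called (0 of 17757 by edgeR and 0 by DESeq2), and 0 members were under an unadjusted p of 0.05, where 1.93% of all genes were. The median difference over the 49 was −0.15, and −0.08 without ASP shSCR replicate 1, where that over all genes was −0.03. Eif2b3 had the smallest p of those with enough counts, at −0.55 ± 0.27 (SE, edgeR adjusted p = 1), and Eif4h was at −0.49 ± 0.30. Eif2b3 was at −0.34 without ASP shSCR replicate 1 and at −0.73 without ASP shSCR replicate 4. Eif4h was at −0.29 without ASP shSCR replicate 2 and at −0.76 without ASP shSCR replicate 3. The groups overlapped for each of the 60, where 0.794% of all genes lay without overlap higher and 0.963% lower in ASP shSCR. The 3 eIF4E-binding proteins lay between 0.13 and 0.31, with Eif4ebp1 the highest, and without ASP shSCR replicate 1 Eif4ebp1 was at 0.07 and Eif4ebp2 at −0.15.

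The comparison with Grin2d knockdown, which shares its ASP shSCR pellets with the other comparisons, gave no call either. In ASP shSCR minus ASP shGRIN2D 0 members were called by edgeR and 0 by DESeq2, and 1 was under an unadjusted p of 0.05, where 3.22% of all genes were. That member was Eif1ad2, which had at most 13 counts in a library. Eif3g and Eif2b3 followed at −0.45 ± 0.24 and −0.50 ± 0.27 (SE, edgeR adjusted p = 1 for both), and Eif2b3 was at −0.30 without ASP shSCR replicate 1. The median difference was −0.14 over the 49, −0.02 over all genes and −0.29 over the eIF3 subunits. Eif4ebp1 and Eif4ebp2 were at 0.33 and 0.41, and at 0.07 and 0.11 without ASP shSCR replicate 1, whereas Eif4enif1 was at 0.39 and 0.34.

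Over the 49 members with enough counts the differences from Dhps knockdown ran from −0.85 to 0.85, and none of them passed in edgeR. This comparison asked which mRNAs depend on the enzyme that starts eIF5A hypusination. In ASP shSCR minus ASP shDHPS 37 genes were called (0.208%) and 0 of them were members. With the libraries scaled by DESeq2 size factors 0 genes were called, and scaled within each fraction 184, with 0 members in both. At an unadjusted p under 0.05 there were 14 of 60 members, 7 in each direction, where 8.68% of all genes were higher and 4.93% lower. DESeq2, run with the same design, called 6 members, all with a lower ratio in ASP shSCR, namely Eif1, Eif2b2, Eif3g, Eif3i, Eif3k and Eif4h, among 664 genes called in all.

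The members with the smallest p were Eif2b2, Eif3g and Eif4h. Eif2b2, the β subunit of eIF2B, had log2 ratios of 0.38, 0.79, 1.21 and 0.90 in ASP shSCR and 2.06, 1.36, 1.56 and 1.42 in ASP shDHPS, with no overlap. The difference was −0.78 ± 0.24 (SE, edgeR adjusted p = 0.134, DESeq2 adjusted p = 0.00998), and −0.67 without ASP shSCR replicate 1. Eif3g had 0.59, 0.50, 1.11 and 1.01 against 1.89, 1.26, 1.52 and 1.40, also with no overlap, and a difference of −0.72 ± 0.24 (edgeR adjusted p = 0.171). Eif4h had 0.43, 0.07, 1.50 and 0.69 against 2.15, 1.48, 1.46 and 0.95. Its groups overlapped through ASP shSCR replicate 3, and the difference was −0.85 ± 0.30 (edgeR adjusted p = 0.194).

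Eif3i, which sits with Eif3b and Eif3g in the complex, and the peripheral Eif3k also had all 4 ASP shSCR pellets below all 4 ASP shDHPS pellets. The ratios of Eif3i ran from 0.04 to 0.73 in ASP shSCR, just short of overlapping the range of 0.73 to 1.19 in ASP shDHPS. Those of Eif3k ran from −0.38 to 0.05 and from 0.24 to 0.59. Such a separation downwards was found in 4 members, the other two being Eif2b2 and Eif3g, and in 2.15% of all genes.

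A higher ratio in ASP shSCR without overlap was found in 2 members, Eif3a and Eif5b, and in 4.71% of all genes. Eif3a, the largest subunit of eIF3, had 0.15, 0.18, 0.43 and 1.09 in ASP shSCR and −0.38, −0.21, −0.26 and −0.05 in ASP shDHPS. Eif5b had 0.53, 0.61, 0.65 and 1.49 against 0.04, −0.11, 0.10 and 0.40. The differences were 0.68 ± 0.26 and 0.71 ± 0.26 (SE, edgeR adjusted p = 0.238 and 0.215). Eif2ak2 had the highest difference of the 49, at 0.85 ± 0.31, with overlapping groups and 1.03 without ASP shSCR replicate 1. With all pellets, no eIF4E-binding protein with enough counts differed by more than 0.21. Without ASP shSCR replicate 1 the ratio of Eif4ebp1 in ASP shSCR was −1.46, below its mean of −1.22 in ASP shDHPS. That of Eif4ebp2 was −2.48, below its mean of −2.35 in ASP shDHPS.

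The difference between ASP shSCR and ASP shDHPS moved with the GC content of the transcript, in members and in all genes, though not in every decile. Its Spearman correlation with GC content was −0.69 over the 49 mRNAs and −0.64 over 10490 genes, and with transcript length 0.70 and 0.33. In the decile of genes with a GC content from 42.15% to 44.65%, which holds Eif3a, Eif5b and Eif2ak2, the median difference of all genes was 0.42, and that of its 9 members 0.53. In the decile from 54.33% to 56.2%, which holds Eif2b2, Eif3g and Eif4h, it was −0.33 for all genes and −0.55 for its 7 members. Eif4g3 went against that decile, at 0.57 with a GC content of 54.5%. In the lowest decile the 8 members had a median of 0.17, where all genes had 0.60, and in the decile from 46.81% to 48.73% the 4 members had −0.27, where all genes had 0.17. Eif3m and Eif3e were at −0.40 and −0.32 with a GC content of 44.43% and 40.31%. The part of GC content and length in these differences was not tested.

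**Figure D4:**
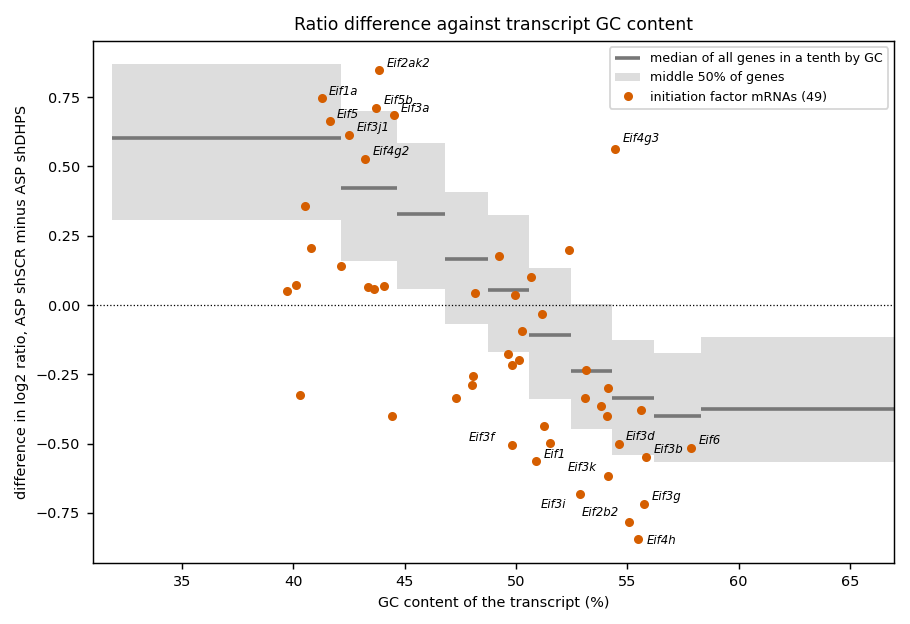
Difference in log2 ratio of polysomal to sub-polysomal CPM, ASP shSCR minus ASP shDHPS (y axis), against the GC content of the transcript in % (x axis, cut off within the highest decile) for the 49 initiation factor mRNAs (points), over the median and the middle 50% of all genes in each decile of GC content. The median of all genes falls from 0.60 in the lowest to −0.37 in the highest decile, and names mark members that differ by more than 0.5.

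Levels within a fraction were then compared, and 1 member passed. Sub-polysomal Eif1a in ASP shDHPS was at 92.8, 66.0, 92.3 and 92.1 CPM, against 45.6, 33.2, 60.9 and 59.6 in ASP shSCR. The groups did not overlap. The log2 difference in level, ASP shSCR minus ASP shDHPS, was −0.78 ± 0.18 (SE, edgeR adjusted p = 0.0272), in a comparison where 1.41% of all genes were called. The call was lost, with an edgeR adjusted p of 0.0840, without ASP shSCR replicate 1, and also without ASP shSCR replicate 2 (0.129) or without ASP shDHPS replicate 1, 3 or 4 (0.0795 to 0.0982). The polysomal levels of Eif1a overlapped, at 143 ± 11.7 and 146 ± 33.0 CPM (SD, n = 4). In bulk libraries fewer cells that express a gene and less mRNA per cell cannot be told apart.

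Eif4e had the next smallest p in that comparison. It was at 109, 75.2, 113 and 121 CPM in the sub-polysomal libraries of ASP shSCR and at 175, 145, 141 and 164 in those of ASP shDHPS, without overlap. The log2 difference in level was −0.58 ± 0.16 (SE), which did not pass in edgeR (adjusted p = 0.0561) and passed in DESeq2 (adjusted p = 0.00803). Eif2d, a factor that can deliver tRNA without GTP, was higher in ASP shSCR with a log2 difference of 0.48 ± 0.15 that did not pass (edgeR adjusted p = 0.109), and passed without ASP shSCR replicate 3 (0.0383). DESeq2 called 4 members, these 3 and Eif4a3l1, among 652 of 17757 genes. The epithelial markers Krt8, Krt18 and Krt19 were higher in the sub-polysomal libraries of ASP shSCR than in those of ASP shDHPS in the same test, with log2 differences in level of 0.74, 1.00 and 1.04, and their part in these results was not tested.

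The other sub-polysomal comparisons called no member, with edgeR and with DESeq2, where edgeR called 0% and 0.315% of all genes against NoASP shSCR and ASP shGRIN2D. At an unadjusted p under 0.05 there were 3 of 60 in ASP shSCR minus NoASP shSCR, where 4.91% of all genes were, and 4 in ASP shSCR minus ASP shGRIN2D, where 11% were. Eif1a was at −0.42 ± 0.18 (SE, edgeR adjusted p = 0.848) against NoASP shSCR, and Eif2d at 0.49 ± 0.15 (adjusted p = 0.195) and Eif3d at 0.38 ± 0.16 (adjusted p = 0.370) against ASP shGRIN2D. The others with small p were Eif1ad2, Eif1ad3 and Eif1ad19, all with few counts, and Eif4g3. Eif1a was at −0.25 against NoASP shSCR without NoASP shSCR replicate 3, and Eif3d at 0.19 against ASP shGRIN2D without ASP shSCR replicate 2. The median log2 difference in sub-polysomal level over the 49 was 0.01 against ASP shGRIN2D and 0.01 against ASP shDHPS.

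No polysomal level of a member was called by edgeR in any comparison, where 0%, 0.0169% and 0.169% of all genes were called against NoASP shSCR, ASP shGRIN2D and ASP shDHPS. At an unadjusted p under 0.05 there were 1, 4 and 9 of 60 members in the same order, where 7.75%, 9.06% and 16.4% of all genes were. Eif4ebp1 had the smallest p in the first 2, with 211, 184, 66.9 and 93.8 CPM in ASP shSCR, 70.2, 89.6, 84.1 and 70.7 in NoASP shSCR, and 52.5, 107, 91.6 and 78.4 in ASP shGRIN2D. Replicates 1 and 2 of ASP shSCR were above all pellets of the other 2 conditions and replicate 3 was below all those of NoASP shSCR. The log2 differences in level were 0.82 ± 0.30 (SE, edgeR adjusted p = 0.430) and 0.75 ± 0.30 (adjusted p = 0.418), and they were 0.52 and 0.47 without ASP shSCR replicate 1. Eif2b3 and Eif2s1 followed against NoASP shSCR, at −0.49 ± 0.28 and −0.35 ± 0.20 (adjusted p = 0.765 for both), with −0.28 for Eif2b3 without ASP shSCR replicate 2 and −0.22 for Eif2s1 without NoASP shSCR replicate 3. Eif4a3l1 and Eif1ad2, with few counts, followed against ASP shGRIN2D.

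Eif3a had the smallest p against ASP shDHPS. Its polysomal levels were 88.4, 122, 162 and 207 CPM in ASP shSCR and 62.6, 74.0, 93.1 and 95.9 in ASP shDHPS, with replicate 1 of ASP shSCR inside the range of ASP shDHPS. The log2 difference in level was 0.83 ± 0.25 (SE), which did not pass in edgeR (adjusted p = 0.120), and passed in DESeq2 (adjusted p = 0.0352) and in edgeR without ASP shSCR replicate 1 (1.00, adjusted p = 0.0473). Eif6 and Eif3g were lower in ASP shSCR by value, with log2 differences of −0.61 ± 0.21 and −0.53 ± 0.18 that did not pass (edgeR adjusted p = 0.156 and 0.162).

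**Figure D5:**
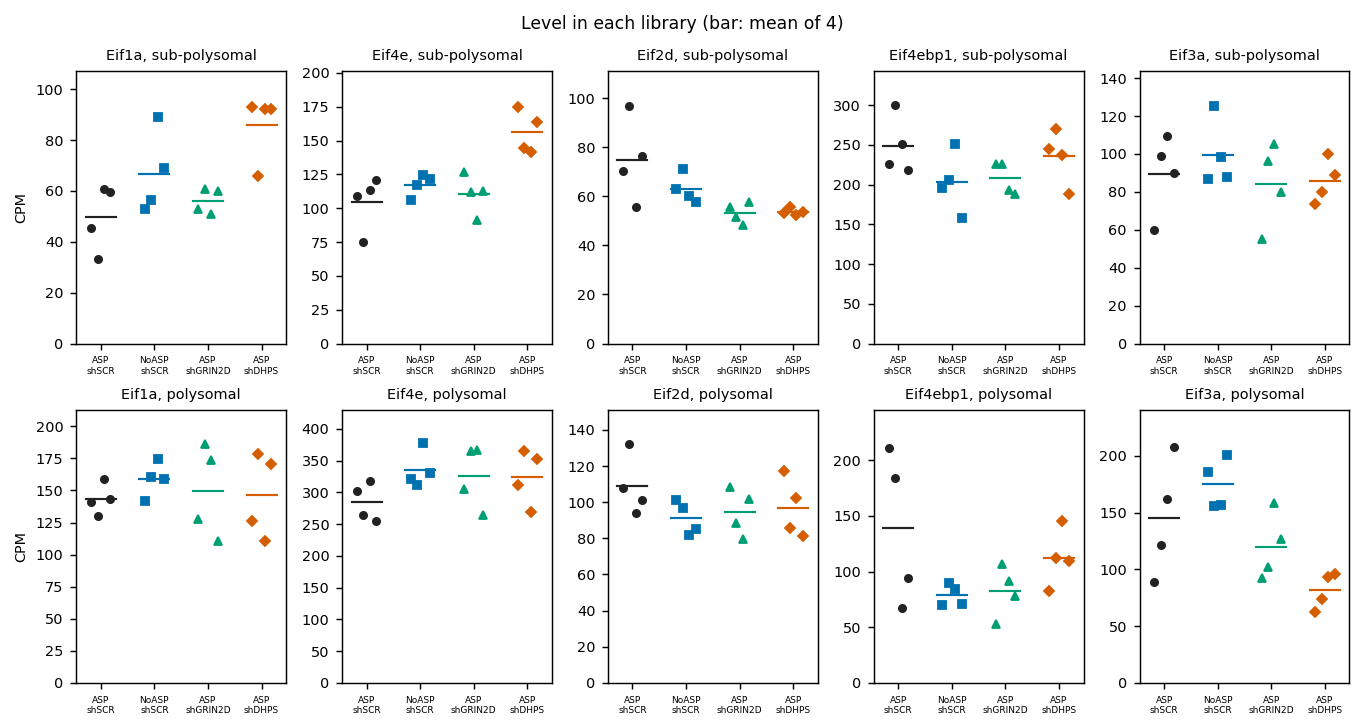
Level in CPM (y axis, from 0) of 5 initiation factor mRNAs in each sub-polysomal (top) and polysomal (bottom) library, by condition, with points for the 4 pellets and a bar at their mean. Sub-polysomal Eif1a and Eif4e lie higher in all 4 pellets of ASP shDHPS than in those of ASP shSCR, and polysomal Eif4ebp1 is spread from 66.9 to 211 CPM in ASP shSCR.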

How the data were processed

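Per the labels and the study's methods, reads were trimmed with Trim Galore 0.6.6, checked with FastQC 0.11.9, mapped to GRCm39 with STAR 2.6.1 and quantified with Salmon 1.4.0. The authors rounded these estimated counts, kept 17757 genes with expression in at least 3 of 4 replicates of a group and deposited them, and this expected count table is the source of every value. The authors' own fold changes and gene set scores were not used. Counts were analysed in R 4.3.3 with edgeR 4.0.16 (TMM, quasi-likelihood test): ratios over all 32 libraries with a term for each pellet, levels within each fraction, each adjusted over all 17757 genes (Benjamini-Hochberg, 0.05). Pellet ratios used a prior count of 2. P-values measure the spread between these pellets. DESeq2 1.42.0 was an alternative. On simulated counts for ASP shSCR minus ASP shDHPS, over 17757 genes, the ratio fit recovered 82.5% of 200 genes changed 3-fold. No library that stood apart was simulated, and a 3-fold change exceeds every difference of a member with enough counts in that comparison. The rate therefore does not show how often differences of the size seen would pass. Lengths and GC content, taken for the transcript with the longest coding sequence, came from GENCODE M21, and start windows from RefSeq (both GRCm38). Pellets of different conditions were not treated as paired, since no label gives replicate numbers a shared origin and not every same-numbered pair correlated. Members, gene lists and tests were chosen with earlier results of these data known. Named in full were Eif4e, Eif4a1, Eif4g1, Eif2s1, the 4 highest and 4 lowest ratios in ASP shSCR, the 3 smallest p-values of each comparison among members, and paralogs. Other members are named as roles require.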

Additional observations from a re-analysis of the deposited data

Results flagged for a closer look

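In 1 of 60 groups of 4 pellets tested, a pellet lay farther from the others than Dixon's 95% critical value allows, and chance gives about 1 in 20. It was the log2 ratio of Eif1a in ASP shSCR, where replicate 2 was at 1.85 and the other 3 pellets between 1.15 and 1.24. The ASP shSCR library that stood apart was that of replicate 1. No member's difference in ratio between conditions passed in edgeR, whereas DESeq2 called 6 members in ASP shSCR minus ASP shDHPS.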

How the results depend on the processing

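Without 1 pellet in turn, the members higher and lower on polysomes numbered 18 to 26 and 5 to 7 in ASP shSCR, 27 to 31 and 5 to 9 in NoASP shSCR, 26 to 32 and 5 to 7 in ASP shGRIN2D, and 23 to 30 and 5 to 8 in ASP shDHPS, with the 5 found without ASP shDHPS replicate 1. Calls over all genes moved as well, with 7159 of 17757 called in ASP shSCR without ASP shSCR replicate 1, where 7058 were with all pellets. They are not given for the other fits, so these ranges cannot be set apart from changes over all genes. In the ratio comparisons 0 members were called without any 1 pellet. In ASP shSCR minus ASP shDHPS, 0 to 2 sub-polysomal levels were called, with 2 without ASP shSCR replicate 3, and 0 to 1 polysomal levels, the 1 being Eif3a without ASP shSCR replicate 1. Without that pellet 131 of 17757 genes were called for polysomal level, where 30 were with all pellets. For sub-polysomal level 136 were called without it, where 251 were with all pellets. Scaling within each fraction left 5 members lower in ASP shDHPS, where 8 were reported. For ASP shSCR minus ASP shDHPS, DESeq2 called 6 ratio differences, 4 sub-polysomal levels and 1 polysomal level (among 664, 652 and 554 genes), and a minimum of 10 counts in every library gave 2 sub-polysomal levels. The cause of these changes was not tested. No called value of a named member changed direction in the alternatives run. Uncalled ratios near 0 changed sign with the scaling, namely Eif3k in ASP shSCR and NoASP shSCR, Eif4g2 and Eif5 in ASP shGRIN2D and Eif3h in ASP shDHPS when scaled within each fraction, and Eif4g2 and Eif5 in ASP shSCR, Eif3e in NoASP shSCR and Eif3e and Eif2a in ASP shDHPS with DESeq2 size factors. Among uncalled ratio differences, 5 against NoASP shSCR, Eif2ak4 and Eif2a against ASP shGRIN2D and Eif2ak3 against ASP shDHPS changed sign when scaled within each fraction, and Eif2b5, Eif2b4 and Eif4enif1 in that order of comparisons with DESeq2 size factors.

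With the replicate number added as a block, 3 sub-polysomal levels (Eif1a, Eif4e and Eif2d) and 1 polysomal level (Eif3a) were called in ASP shSCR minus ASP shDHPS, among 758 and 405 of 17757 genes, and 0 ratio differences in each comparison. The labels give no shared origin for a number. Deviations of same-numbered pellets of different conditions had a median correlation of 0.17, with 14 of 24 pairs above 0.1, against −0.05 for 72 pairs with different numbers, and 10 of 16 pellets were closest to their own number. Among the 49 members with enough counts, replicate 4 had the highest ratio of Eif2a, Eif3e, Eif4a1, Eif4b and Eif5b in all 4 conditions. What the numbers share was not tested. Depth limits the 11 members with few counts.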
